A study of Mus musculus with 33 samples.

Results

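Ifi202b, Csprs and C130026I21Rik are 3 mouse genes of interferon-inducible families, followed here after lipopolysaccharide (LPS) in RAW264.7, a line of transformed mouse cells that resemble macrophages. Each was read by 1 probe, which makes 3 of the 33012 gene probes on the array, and they were chosen because they were much brighter after LPS than after vehicle. The groups held 3 biological replicates each. Cells received LPS at 1 µg/ml together with 1 of 3 peony root compounds (albiflorin, paeoniflorin or paeonol, each at 1, 10 and 100 µg/ml), LPS at 1 µg/ml alone, or the vehicle, 0.1% DMSO. All 11 groups were harvested at 6 h, which gave 33 one-colour arrays, 30 of them from LPS-treated cells.

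LPS, a component of the outer membrane of Gram-negative bacteria, is sensed by Toll-like receptor 4. In macrophages this receptor signals through MyD88 to inflammatory genes and through TRIF to interferon beta, and secreted interferon then switches on a second set of genes through STAT and IRF transcription factors. Ifi202b belongs to the HIN-200 (p200, PYHIN) family. Its protein binds DNA through HIN domains, lacks the pyrin domain of AIM2, and in mice can restrain the AIM2 inflammasome. Csprs is a component of Sp100-rs, a sequence related to the nuclear body gene Sp100 that is repeated in many copies on chromosome 1 of some mice. C130026I21Rik is an uncharacterised gene among the Sp100, Sp110 and Sp140 genes of the same chromosome. Albiflorin and paeoniflorin are isomeric monoterpene glycosides of peony root, and paeonol is a small phenolic ketone. Doses were matched by mass, so molar doses of paeonol and the glycosides differed.

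Csprs and C130026I21Rik come from regions of near-identical copies, so their probes may read relatives as well. The RefSeq promoter table (build GRCm38.p6) holds an entry for 2 of the 3 genes, each covering 250 bases before to 50 after the start, and the entry of C130026I21Rik is shown beside those of 2 relatives because the sequences make the likeness visible. The window of C130026I21Rik lies at chr1:85270517-85270816 on the minus strand, that of A530032D15Rik at chr1:85109804-85110103 on the minus strand, and that of Sp140 at chr1:85600453-85600752 on the plus strand. Capitals mark the longest run of 146 bases that all 3 windows share.
C130026I21Rik: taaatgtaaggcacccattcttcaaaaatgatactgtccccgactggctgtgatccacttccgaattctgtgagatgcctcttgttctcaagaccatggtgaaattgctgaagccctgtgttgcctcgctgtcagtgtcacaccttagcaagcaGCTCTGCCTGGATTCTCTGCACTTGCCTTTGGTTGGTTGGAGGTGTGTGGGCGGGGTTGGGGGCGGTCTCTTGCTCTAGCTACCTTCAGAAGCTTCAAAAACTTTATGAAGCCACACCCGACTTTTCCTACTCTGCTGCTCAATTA
A530032D15Rik: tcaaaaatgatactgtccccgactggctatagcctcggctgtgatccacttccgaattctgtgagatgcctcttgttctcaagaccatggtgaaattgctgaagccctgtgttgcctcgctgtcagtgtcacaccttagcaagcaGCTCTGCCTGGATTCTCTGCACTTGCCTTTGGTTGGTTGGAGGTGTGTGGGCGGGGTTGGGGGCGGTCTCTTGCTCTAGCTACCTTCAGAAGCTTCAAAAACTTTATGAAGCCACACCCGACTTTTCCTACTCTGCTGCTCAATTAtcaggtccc
Sp140: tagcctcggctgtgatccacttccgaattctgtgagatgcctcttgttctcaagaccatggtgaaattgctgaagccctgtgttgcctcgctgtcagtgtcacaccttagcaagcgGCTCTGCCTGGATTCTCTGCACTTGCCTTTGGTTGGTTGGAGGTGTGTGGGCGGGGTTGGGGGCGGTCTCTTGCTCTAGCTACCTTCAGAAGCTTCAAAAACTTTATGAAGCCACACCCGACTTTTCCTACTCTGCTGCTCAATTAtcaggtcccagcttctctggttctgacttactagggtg
C130026I21Rik and A530032D15Rik shared an uninterrupted run of 255 bases. Against Sp140, 254 of 262 aligned bases were identical without gaps, whereas the longest run shared with an Sp100 or Sp110 window was 10 bases. A likeness between promoters does not show how alike the probed transcripts are, and cross-hybridisation was not tested.

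Ifi202b has its own window, at chr1:173982795-173983094 on the minus strand. It is shown with the named gene Trim34a, at chr7:104244207-104244506 on the plus strand, whose signal over all 33 arrays resembled that of the members most closely among named genes outside the group. Capitals mark matches to the core of the interferon-stimulated response element, which is GAAA, any 2 bases and GAAA again, or to the gamma-activated sequence, TTCNNNGAA, each searched on both strands.
Ifi202b: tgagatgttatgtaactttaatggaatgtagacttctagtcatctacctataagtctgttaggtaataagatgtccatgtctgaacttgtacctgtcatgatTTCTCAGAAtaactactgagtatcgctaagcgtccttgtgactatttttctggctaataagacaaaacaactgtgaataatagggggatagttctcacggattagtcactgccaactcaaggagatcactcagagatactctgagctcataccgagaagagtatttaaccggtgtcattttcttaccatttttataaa
Trim34a: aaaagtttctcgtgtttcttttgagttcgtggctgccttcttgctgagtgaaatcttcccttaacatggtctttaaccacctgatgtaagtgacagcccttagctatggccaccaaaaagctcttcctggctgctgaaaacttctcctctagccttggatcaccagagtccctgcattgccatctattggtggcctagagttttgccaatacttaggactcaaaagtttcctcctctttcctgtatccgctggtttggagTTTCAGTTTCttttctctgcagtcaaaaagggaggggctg
The Ifi202b window held 1 match to the gamma-activated sequence, from base -148 to base -140 relative to the start, and none to the other motif. Of 32544 promoter windows of 300 bases, 8.33% held that match. The Trim34a window held 1 match to the response element core, which was present in 3.45% of windows. The C130026I21Rik window held neither. These are matches of letters in a fixed window, and no match overlapped another.

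The choice of the 3 genes rests on LPS against vehicle, so their values in that comparison are given as a description without a test. Signals were quantile normalized between arrays and put on a log2 scale, where 1 unit is a doubling of brightness. Ifi202b read 19.63, 20.24 and 20.01 after LPS alone, against 15.20, 15.75 and 14.97 in vehicle (replicates 1, 2 and 3). The means were 19.96 ± 0.31 after LPS alone and 15.31 ± 0.40 in vehicle (SD, n = 3 each), a log2 difference of 4.65 or 25.2-fold. Every LPS array lay far above every vehicle array.

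Csprs read 16.70, 16.95 and 16.64 after LPS alone, against 13.01, 12.50 and 11.85 in vehicle. Its log2 difference was 4.31, or 19.9-fold, with the widest spread of the 3 genes in vehicle (SD 0.58, n = 3). C130026I21Rik read 18.26, 18.79 and 18.51 after LPS alone, against 15.99, 15.75 and 15.59 in vehicle, a log2 difference of 2.74 or 6.69-fold. None of the 3 genes was silent in vehicle. Signal over noise in vehicle was 44.9 to 56.7 for Ifi202b, 13.1 to 30.1 for Csprs and 50.3 to 67.0 for C130026I21Rik, all above the detection limit of 3.

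Within an array, Ifi202b moved to between the 98.9th and 99.7th percentile of all gene probes on LPS-treated arrays, against the 86.2nd to 90.2nd percentile in vehicle. Csprs moved to the 89.8th to 95.5th percentile, against the 68.0th to 75.0th in vehicle, and C130026I21Rik to the 96.7th to 98.5th, against the 89.4th to 91.3rd. Among 183 named probes that were tested, Ifi202b, Csprs and C130026I21Rik ranked 1, 2 and 5 in the LPS-minus-vehicle difference, and among all 19438 tested probes they ranked 73, 89 and 234. The nearest probes on either side differed from each member by at most 0.02 in log2. Those next to Ifi202b were probe 726901 at 4.67 and probe 616243 at 4.65, both unnamed here.

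Pairs scanned on the same day showed the same direction in the unnormalized signals, with an unequal size. The ratio of the LPS array to the vehicle array of the day was 19.7, 32.1 and 32.1 for Ifi202b, 11.3, 31.9 and 24.9 for Csprs, and 4.21, 13.1 and 7.25 for C130026I21Rik. Day 1 gave the smallest ratio for all 3 genes. After normalization the 3 days gave log2 differences of 4.43, 4.49 and 5.04 for Ifi202b, 3.70, 4.46 and 4.79 for Csprs, and 2.27, 3.04 and 2.92 for C130026I21Rik.

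On 8 of 30 LPS-treated arrays the Ifi202b spot carried flag code 4, whose meaning the files do not state and which fell only on spots with a signal of 676065 or more. No array flagged Csprs or C130026I21Rik this way. Whether the brightest Ifi202b readings are compressed was not tested.

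**Figure D1:**
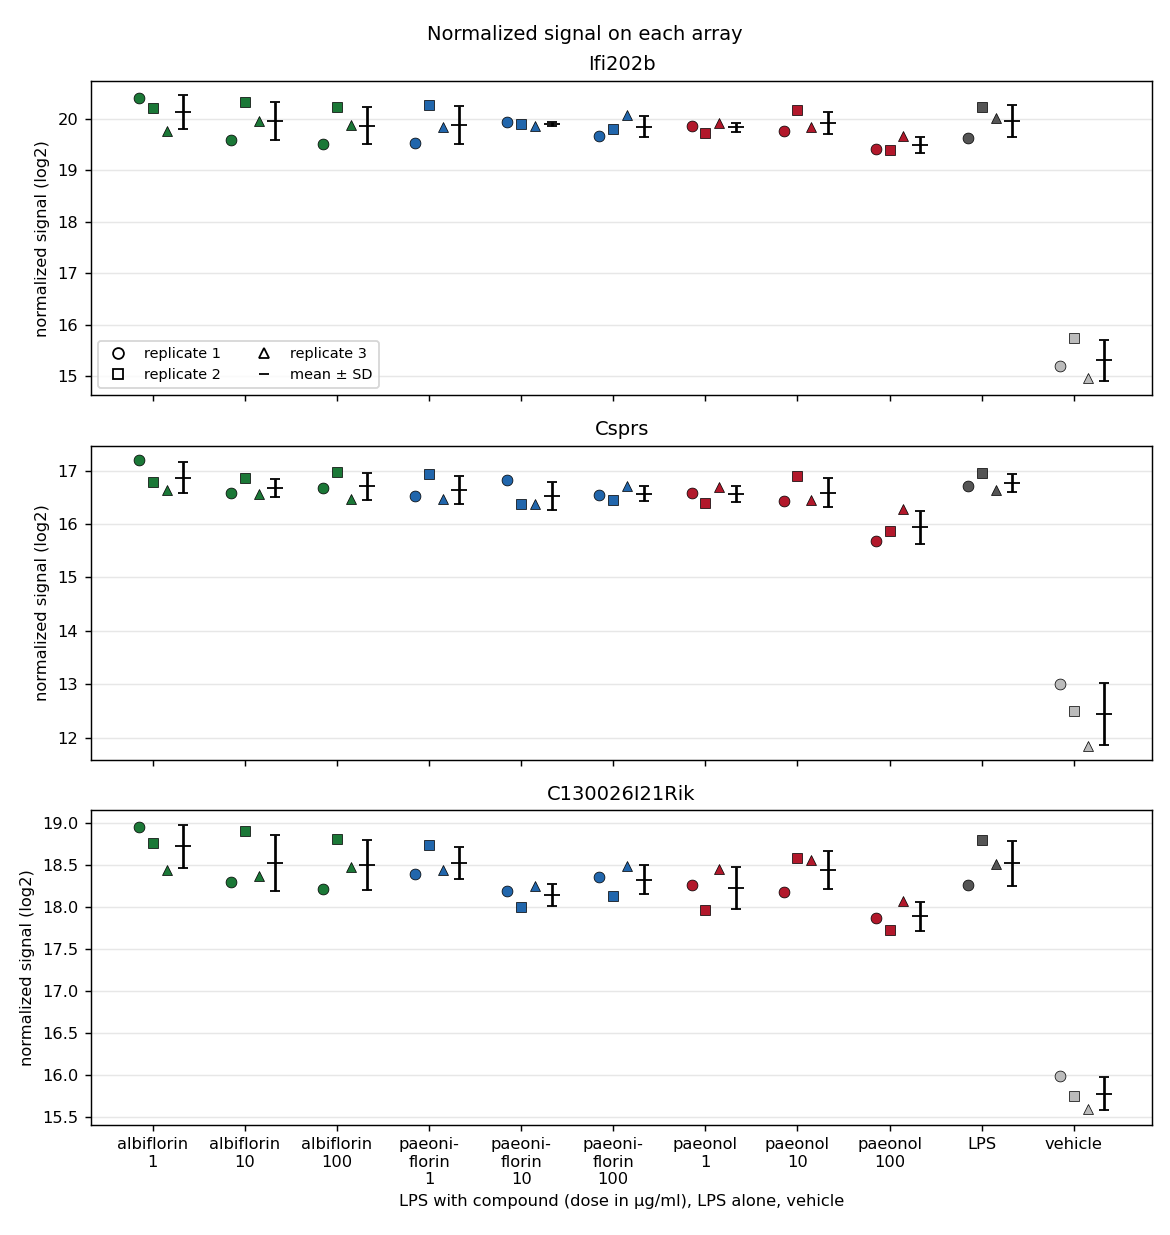
Normalized log2 signal of Ifi202b, Csprs and C130026I21Rik on all 33 arrays, by group from LPS with albiflorin, paeoniflorin and paeonol (1, 10 and 100 µg/ml) to LPS alone and vehicle. Each symbol is an array and its shape the replicate number, and the bar beside each group is the mean ± SD (n = 3). The vehicle arrays lie far below all others, and paeonol at 100 µg/ml has the lowest mean of the 10 LPS-treated groups for each gene.

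All 3 genes stayed far above vehicle with each compound at each dose. Over the 27 arrays of LPS with a compound, Ifi202b ran from 19.39 to 20.41 with a median of 19.85, while the highest vehicle array was 15.75. The lowest of the 30 LPS-treated arrays was 3.64 above the highest vehicle array for Ifi202b, 2.67 above it for Csprs and 1.74 above it for C130026I21Rik, which is 12.5-fold, 6.35-fold and 3.33-fold. Mean levels over vehicle ranged from 28.3-fold with albiflorin at 1 µg/ml to 18.2-fold with paeonol at 100 µg/ml for Ifi202b. For Csprs they ranged from 21.4-fold to 11.2-fold and for C130026I21Rik from 7.68-fold to 4.32-fold, at the same 2 ends of the order.

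The order of the 11 group means began alike in the 3 genes, with vehicle lowest, paeonol at 100 µg/ml next, and albiflorin at 1 µg/ml highest. Replicate 1 of albiflorin at 1 µg/ml exceeded the LPS array of its day by 0.78 for Ifi202b, 0.49 for Csprs and 0.70 for C130026I21Rik. Replicates 2 and 3 lay below the LPS arrays of their days in each gene. Of the 10 steps between neighbours in the order of means, 8 were smaller than the larger SD of the 2 groups in each gene. The other 2 were the steps from vehicle to paeonol at 100 µg/ml and from there to the next group. That second step was 0.35 for Ifi202b (to paeonol at 1 µg/ml), 0.59 for Csprs and 0.26 for C130026I21Rik (both to paeoniflorin at 10 µg/ml). The remaining groups of LPS-treated cells covered a range of means of 0.29, 0.34 and 0.57.

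Paeonol at 100 µg/ml, set against LPS alone, gave the lowest values of all 3 genes, but no difference passed the threshold. Csprs read 15.67, 15.86 and 16.28 with paeonol at 100 µg/ml, against 16.70, 16.95 and 16.64 with LPS alone. The groups did not overlap, and these were the 3 lowest of the 30 LPS-treated arrays, the next lowest being 16.38. The log2 difference was -0.83 ± 0.23 (SE, 95% interval -1.31 to -0.34), a 1.77-fold lower signal. Its p was 0.00167 before adjustment and 0.240 after Benjamini-Hochberg adjustment over all tested probes in limma. Of all tested probes, 0.144% were called in this comparison, at an adjusted p under 0.05. The replicate number marks a shared scan day, and with it as a block the adjusted p of Csprs was 0.118, while the called probes numbered 94 in place of 28.

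C130026I21Rik read 17.87, 17.73 and 18.07 with paeonol at 100 µg/ml, against 18.26, 18.79 and 18.51 with LPS alone. These groups did not overlap either, although 2 of the other LPS-treated arrays lay below the highest of the 3. The log2 difference was -0.63 ± 0.20, a 1.55-fold lower signal, with a limma adjusted p of 0.310. Ifi202b read 19.41, 19.39 and 19.67, against 19.63, 20.24 and 20.01, so that its groups overlapped. Its difference was -0.47 ± 0.23 with a limma adjusted p of 0.673.

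A non-overlap of this kind was common. Among 17688 tested probes with no missing value on the LPS-treated arrays, 6.36% had all 3 arrays of paeonol at 100 µg/ml below all 3 of LPS alone. For 0.481% they were the 3 lowest of the 30 LPS-treated arrays, as they were for Csprs. Beside all probes, the LPS-induced ones leaned the same way. Over the 408 probes called at least 4-fold higher after LPS than in vehicle, the median difference between paeonol at 100 µg/ml and LPS alone was -0.61, with 92.4% below 0, against a median of 0.03 over all tested probes. Of the 408, 121 had a lower difference than Csprs, 192 than C130026I21Rik and 244 than Ifi202b.

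The members and those 408 probes were chosen for being high on the LPS arrays, which places any group set against the same arrays lower than an independent choice would. Albiflorin and paeoniflorin at 100 µg/ml, set against the same LPS arrays, had medians of -0.08 and -0.23 over the 408 probes. At 1 and 10 µg/ml the medians were 0.19 and -0.10 with albiflorin, -0.04 and -0.27 with paeoniflorin, and -0.31 and -0.10 with paeonol. Without the LPS arrays, the median of paeonol minus albiflorin at 100 µg/ml was -0.50 with 86.8% below 0, and of paeonol minus paeoniflorin -0.39 with 85.5% below 0.

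**Figure D2:**
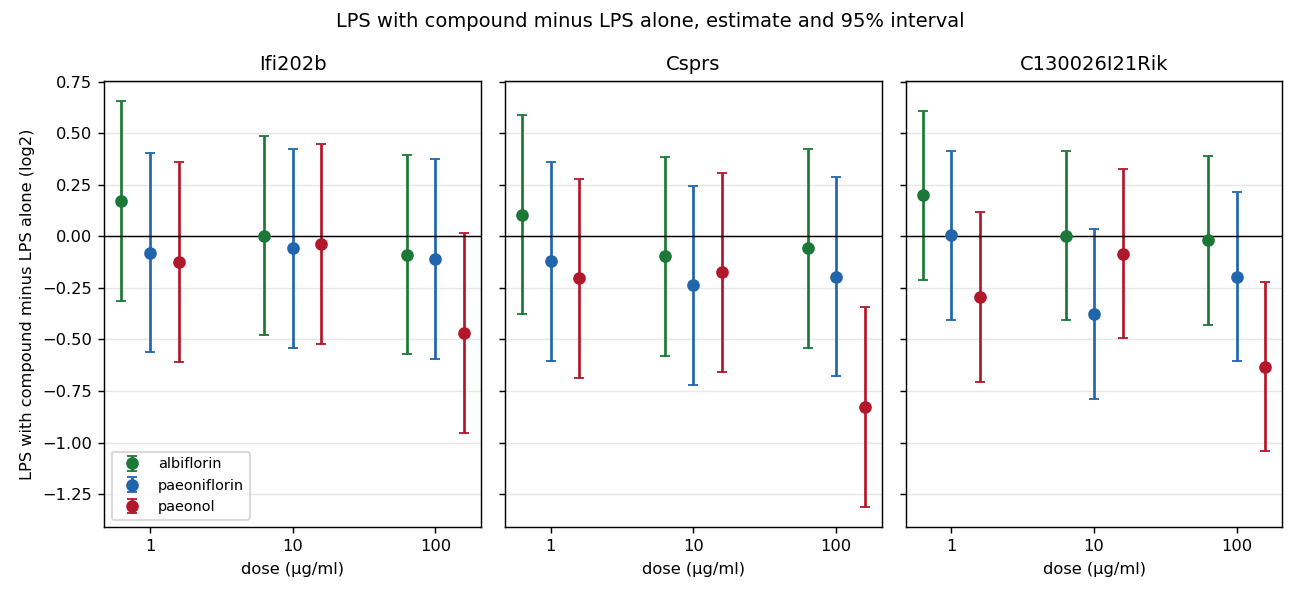
Log2 difference between LPS with compound and LPS alone for each gene, by dose in µg/ml. Points are limma estimates and bars 95% intervals (n = 3 arrays a group). At 100 µg/ml the paeonol points sit at -0.47, -0.83 and -0.63, and only the paeonol intervals of Csprs and C130026I21Rik at that dose do not include 0.

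Set against the LPS array of its own day, the array of paeonol at 100 µg/ml was lower on each of the 3 days for each gene. Single genes in other groups were also lower on all 3 days. They were Ifi202b with albiflorin at 100 µg/ml and C130026I21Rik with paeoniflorin at 10 µg/ml. Csprs was so with albiflorin at 10, paeoniflorin at 1 and paeonol at 10 µg/ml. How many of all probes were lower on all 3 days was not counted. Csprs differed by -1.03, -1.09 and -0.36 on days 1, 2 and 3. C130026I21Rik differed by -0.39, -1.06 and -0.44, and Ifi202b by -0.22, -0.84 and -0.34. The SD over the 3 days was 0.41 for Csprs, 0.37 for C130026I21Rik and 0.33 for Ifi202b. Day 2 gave the largest difference in all 3 genes, and its LPS array was the highest of the 3 LPS arrays for each gene. Day 2 was also the lowest day in all 3 genes with paeonol at 1 µg/ml and with paeoniflorin at 10 and 100 µg/ml. It was not so in all 3 genes with any other compound group.

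The arrays were cut into a pair of sets by clustering their 28 manufacturing test control spots. The number of sets was fixed beforehand, and no label or header names them. The sets are unevenly filled. Set 1 holds all 9 paeonol arrays, 7 of 9 paeoniflorin arrays, 5 of 9 albiflorin arrays, 1 of 3 LPS arrays and 1 of 3 vehicle arrays. Within set 1, paeonol at 100 µg/ml minus the single LPS array was -0.77 for Csprs, -0.37 for C130026I21Rik and -0.14 for Ifi202b. In set 2 there was no paeonol array. With the set as a block the differences were -1.04 ± 0.22, -0.68 ± 0.21 and -0.46 ± 0.26. With the set and the replicate number as blocks together, Csprs was -1.09 ± 0.24 at a limma adjusted p of 0.0482, the single call of a member over all fits made.

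The means of the lower doses of paeonol lay between those of paeonol at 100 µg/ml and LPS alone, but the single arrays did not separate. Those of Ifi202b lay inside the range of LPS alone. In each gene the mean at 10 µg/ml was above that at 1 µg/ml. At 1 and 10 µg/ml the 6 arrays of Csprs ran from 16.40 to 16.90 with a median of 16.52, those of C130026I21Rik from 17.96 to 18.58 with a median of 18.36, and those of Ifi202b from 19.73 to 20.17 with a median of 19.85. Their 6 differences from LPS alone were all below 0, from -0.29 to -0.04, and none was called. Over the 3 doses together paeonol differed from LPS alone by -0.40 ± 0.19 for Csprs, -0.34 ± 0.16 for C130026I21Rik and -0.21 ± 0.19 for Ifi202b, with limma adjusted p of 0.846, 0.848 and 0.984. The slope on log10 dose was -0.31 ± 0.12 per 10-fold for Csprs, -0.17 ± 0.10 for C130026I21Rik and -0.17 ± 0.12 for Ifi202b. The Csprs slope had a limma adjusted p of 0.586, in a comparison that called 0.0206% of probes. The Csprs means were 16.56, 16.59 and 15.94 at 1, 10 and 100 µg/ml. Those of C130026I21Rik were 18.23, 18.44 and 17.89, and those of Ifi202b 19.84, 19.92 and 19.49. No gene fell at each step of dose.

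With albiflorin or paeoniflorin at 100 µg/ml, no difference of the 3 genes from LPS alone was called. Csprs read 16.68, 16.97 and 16.47 with albiflorin at 100 µg/ml and 16.55, 16.44 and 16.71 with paeoniflorin at 100 µg/ml, against 16.70, 16.95 and 16.64 with LPS alone. All of these overlapped. Differences from LPS alone at 100 µg/ml were -0.06 ± 0.23 for albiflorin and -0.20 ± 0.23 for paeoniflorin. For C130026I21Rik they were -0.02 ± 0.20 and -0.20 ± 0.20, and for Ifi202b -0.09 ± 0.23 and -0.11 ± 0.23. Each of these 95% intervals reaches beyond 0.3 in log2 on at least one side, so smaller changes cannot be read from 3 arrays a group.

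Over all 3 doses of both glycosides the 18 differences from LPS alone ran from -0.38 to 0.20, 12 of them below 0. The lowest was C130026I21Rik with paeoniflorin at 10 µg/ml, which read 18.19, 17.99 and 18.25, against 18.26, 18.79 and 18.51 with LPS alone. The highest of that group, 18.25, lay only just below the lowest of LPS alone, 18.26. How many of all probes separate in this comparison was not counted. The difference was -0.38 ± 0.20 with a limma adjusted p of 0.633. Replicate 1 of that group had the lowest share of detected probes of all arrays, 38.2%. The highest was the same gene with albiflorin at 1 µg/ml, which read 18.95, 18.76 and 18.44 and overlapped with LPS alone. There, replicate 1 was the highest of the 30 LPS-treated arrays for each of the 3 genes and was also the array with the highest median scanner signal, 1439.7.

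Across all comparisons of a compound with LPS alone, of dose and of compounds with one another, 0 of 90 tests on the 3 genes were called by limma, and 16 of 90 had an unadjusted p under 0.05. Most of the 16 involved paeonol and reused the same arrays, so they are not separate results. Of 19438 tested probes, 1479 had such a p in limma for paeonol at 100 µg/ml against LPS alone. For the albiflorin mean against the paeonol mean, 2591 did. Few probes of any kind were called in the fit reported, which has no block for the scan day. In 20 of the 30 comparisons no probe passed in limma (0%), with 236 to 1580 probes at an unadjusted p under 0.05, among them each dose of albiflorin and paeoniflorin against LPS alone. The mean of paeoniflorin over doses against LPS alone called 0.00514%. The counts depend on the fit. With the replicate number as a block, the albiflorin mean against the paeonol mean called 498 probes in place of 5. The paeonol trend called 26 in place of 4, and paeonol at 100 µg/ml against LPS alone 94 in place of 28. No member was called with that block.

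**Figure D3:**
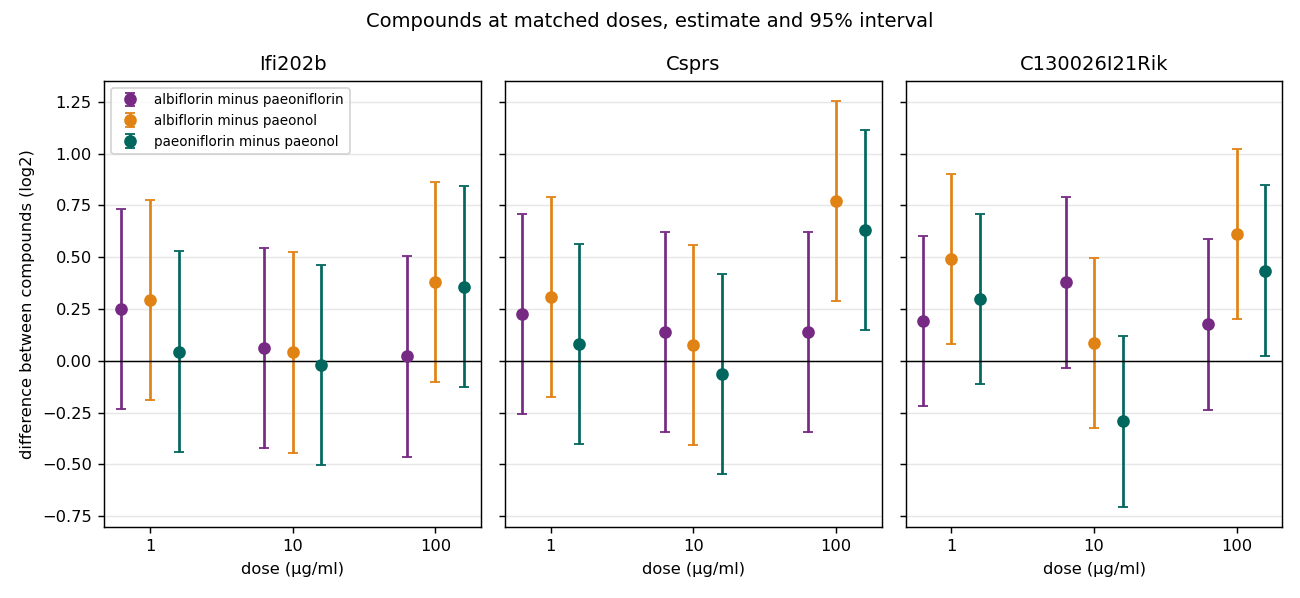
Log2 difference between compounds at the same dose in µg/ml, for each gene, as albiflorin minus paeoniflorin, albiflorin minus paeonol and paeoniflorin minus paeonol. Points are limma estimates and bars 95% intervals (n = 3 arrays a group). At 100 µg/ml both glycosides lie above paeonol for the 3 genes, by 0.36 to 0.77, and at 10 µg/ml every interval includes 0.

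In the comparisons of compounds with one another no LPS array enters at any dose, and the estimates of both glycosides minus paeonol were largest at 100 µg/ml in each of the 3 genes. Csprs read 16.68, 16.97 and 16.47 with albiflorin, against 15.67, 15.86 and 16.28 with paeonol, without overlap. The difference was 0.77 ± 0.23 (95% interval 0.29 to 1.25), a 1.71-fold higher signal with albiflorin, with a limma adjusted p of 0.343 where 0.0309% of probes were called. Paeoniflorin was 0.63 ± 0.23 above paeonol (95% interval 0.15 to 1.11), also without overlap. That difference had a limma adjusted p close to 1, where 0.0154% of probes were called. How many of all probes separate in this way was not counted for either glycoside.

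At the same dose C130026I21Rik exceeded its paeonol level by 0.61 ± 0.20 with albiflorin (limma adjusted p 0.354) and by 0.44 ± 0.20 with paeoniflorin (close to 1), and Ifi202b by 0.38 ± 0.23 (0.656) and 0.36 ± 0.23 (close to 1). Within array set 1 the Csprs differences, taken as paeonol minus the other compound, were -0.89 against 2 albiflorin arrays and -0.63 against 3 paeoniflorin arrays. Albiflorin minus paeoniflorin, a pair of isomers, was 0.02 ± 0.23 for Ifi202b, 0.14 ± 0.23 for Csprs and 0.18 ± 0.20 for C130026I21Rik at 100 µg/ml. Their 95% intervals were -0.46 to 0.51, -0.34 to 0.62 and -0.24 to 0.59, which leaves differences of up to about that size undetectable here.

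At 1 µg/ml the albiflorin to paeonol difference of C130026I21Rik was 0.49 ± 0.20 with a limma adjusted p of 0.374, in a comparison that called 0.0103% of probes. The other differences at 1 and 10 µg/ml lay between -0.29 and 0.38. Averaged over doses, albiflorin exceeded paeonol by 0.40 ± 0.12 for C130026I21Rik, 0.39 ± 0.14 for Csprs and 0.24 ± 0.14 for Ifi202b. The limma adjusted p were 0.172, 0.237 and 0.453, where 0.0257% of probes were called, and the first is the smallest adjusted p of the 90 tests. Over 30 alternative limma fits the adjusted p ran from 0.0578 to 0.4735 for C130026I21Rik and from 0.0520 to 0.5561 for Csprs. For Ifi202b it ran from 0.2751 to 0.7295. The mean of paeoniflorin against that of paeonol called 0.00514%. The moderated F over the 3 doses called 0.0154% for albiflorin against paeonol and 0.00514% for paeoniflorin against paeonol, and its adjusted p for the members were 0.384 or more.

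The 3 genes went up and down together from array to array. Over the 30 LPS-treated arrays Pearson's r was 0.84 between Ifi202b and C130026I21Rik, 0.83 between Csprs and C130026I21Rik and 0.79 between Ifi202b and Csprs, with Spearman's rho of 0.78, 0.79 and 0.72. Without the 2 arrays farthest from the median of the first gene, r was 0.79, 0.79 and 0.75. Without the 3 arrays of paeonol at 100 µg/ml it was 0.78, 0.77 and 0.73. Of deviations from the group means r was 0.86, 0.72 and 0.72, so the likeness was also present among replicates of a group. The arrays share scan days, array sets and a normalization, and what part of the correlation these give was not tested.

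**Figure D4:**
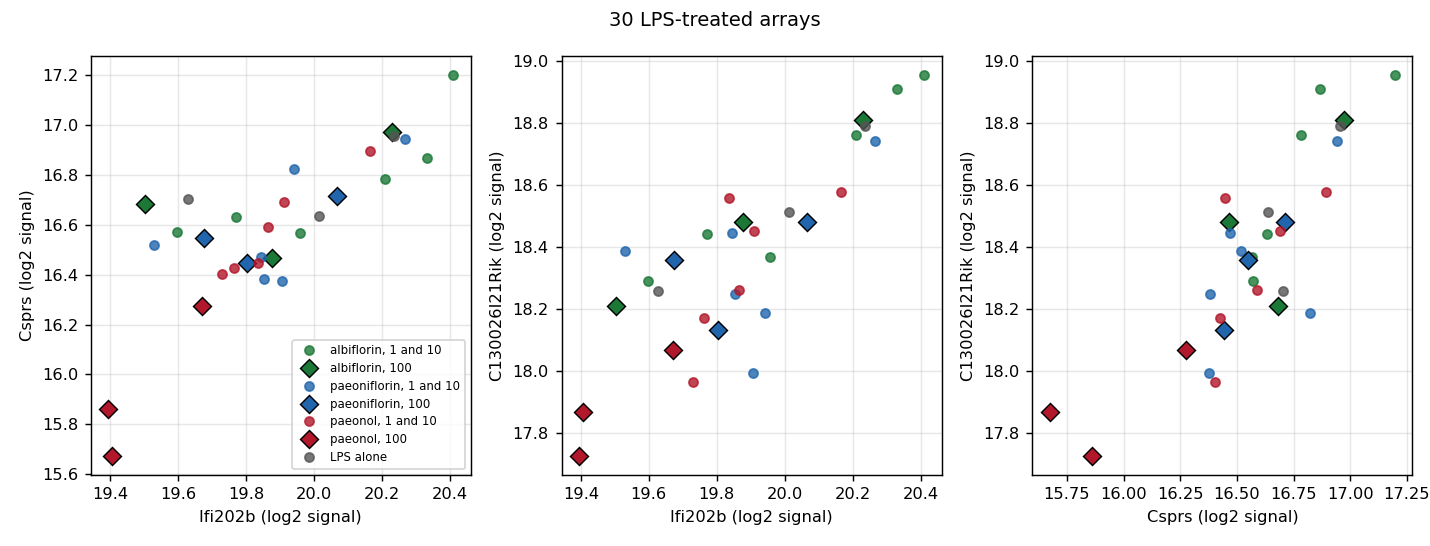
Normalized log2 signal of 1 gene against another on the 30 LPS-treated arrays. Colours give the compound, diamonds the dose of 100 µg/ml and circles the doses of 1 and 10 µg/ml or LPS alone. Of the 3 red diamonds of paeonol at 100 µg/ml, 2 lie apart at the low end of each panel, with Pearson's r of 0.79, 0.84 and 0.83 from left to right.

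Other probes followed the members more closely than the members followed each other. Of 17687 probes ranked by r, C130026I21Rik was number 139 for Ifi202b and number 46 for Csprs, and the highest r of any probe was 0.96 with Ifi202b, 0.90 with Csprs and 0.93 with C130026I21Rik. The named probes most like Ifi202b over the 30 arrays were C130026I21Rik, Sowahc (r = 0.80), an ankyrin repeat gene, and Csprs. For Csprs they were C130026I21Rik, Ifi202b and Sowahc (r = 0.73), and for C130026I21Rik they were Ifi202b, Csprs and Trim34a (r = 0.76), a member of the interferon-inducible TRIM family. Over all 33 arrays Trim34a was the third in each of the 3 rankings, after the other two members. That order mainly separates vehicle from LPS-treated arrays, so no coefficient is given for it.

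Few relatives could be read by name. Of 15 listed HIN-200 genes only Ifi202b was named on the array, and of 10 listed genes of the SP100 family only Csprs and C130026I21Rik. Of 49 listed interferon-inducible genes 3 were named and tested, and of 22 interferon signalling genes 1. Of these 4, 3 rose after LPS at an adjusted p under 0.05 and none fell, where 6.59% of all tested probes were called higher. The lists were chosen with earlier results of these data known, so this count is a description and not independent support. Trim34a rose by 3.82 ± 0.33 in log2 (limma adjusted p 4.58e-09), H2-Q7, which encodes a non-classical class I histocompatibility antigen, by 0.59 ± 0.16 (adjusted p 0.0119), and Stat5a, a transcription factor activated by cytokine receptors, by 1.31 ± 0.44 (adjusted p 0.0422). Tlr7, the endosomal sensor of single-stranded RNA, differed by 0.69 ± 0.42 (adjusted p 0.342). Paeonol at 100 µg/ml differed from LPS alone by -0.46 for Trim34a, -0.17 for H2-Q7, -0.24 for Stat5a and -0.47 for Tlr7.

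Of 27 listed cell type markers 1 was named and tested, which is too few to check the cell identity. That marker was Cebpb, a transcription factor of myeloid cells. Its 2 probes had log2 signals of 10.48 to 16.00 and of 18.83 to 20.38 over the 33 arrays. Whether other cell types contributed could not be read from named probes. In RNA of a whole culture, fewer responding cells and less RNA per cell cannot be told apart. Median scanner signals ran from 335.9 to 1439.7 and detected probes from 38.2% to 49.7% of an array.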

How the data were processed

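The deposited scanner tables hold, per the file headers, a signal for each spot (a linear intensity, not scaled between arrays), a signal-over-noise score, and a flag code (other). Per the labels' protocols, cRNA was labelled with digoxigenin by a chemiluminescent kit. Scanner software and genome build are not given in the sources used here. The deposited series table holds the authors' processed log2 values, whose normalization is not stated, and served as an alternative.

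Spots with a flag above 5000 were set missing, 303 control spots left out, signals quantile normalized, floored at the 5th percentile (165.7) and taken to log2. Probes with a signal over noise of at least 3 on 3 or more arrays were tested (19438). All 33 arrays entered 1 fit of 11 group means in limma 3.58.1 (R 4.3.3; lmFit, eBayes, 2-sided). P-values were adjusted by Benjamini-Hochberg over all tested probes within a comparison, with a call under 0.05. The fit was tested on simulated data with independent noise and no scan days or array sets. That run does not show how these affect the calls. Intervals are 95%, and the number of arrays limits the precision.

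Names came from RefSeq (GRCm38.p6, names only) by accession, for 316 of 33012 probes. Replicate numbers match scan days in the headers for 3 of 3 numbers. Deviations from group means had a median correlation of 0.19 within a number and -0.11 across numbers. The members, gene lists and tests were chosen with earlier results of these data known. The text names the 3 members, the 3 named probes most correlated with each, and every named and tested member of 4 gene lists.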

Additional observations from a re-analysis of the deposited data

How the results depend on the processing

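For LPS minus vehicle, array weights and the fit of only the compared groups were not among the alternatives. In each of the others the differences moved by less than the larger of the LPS and vehicle SDs. With arrays left out they ran from 4.49 to 4.87 for Ifi202b, 4.01 to 4.59 for Csprs and 2.61 to 2.87 for C130026I21Rik. No member was called in any alternative except Csprs with paeonol at 100 µg/ml against LPS alone, which was -1.09 and called, making 1 of 27 dose tests, with array set and replicate number as blocks, an alternative chosen after seeing the data. Its adjusted p ran from 0.0482 to 0.804 over 18 alternatives, and its difference from -0.997 to -0.70 with arrays left out. Of 1647 tested values under alternatives 100 changed sign, none called, where the difference was at most 0.29 in size. At 100 µg/ml against LPS alone, Ifi202b turned to 0.0475 with albiflorin in the authors' table and to 0.085 with code 4 spots missing, and to 0.0252 with paeoniflorin and code 4 spots missing. Csprs, albiflorin minus paeoniflorin, turned to -0.0775 under median scaling. With arrays left out, albiflorin against LPS ran from -0.27 to 0.0945 for Ifi202b, -0.19 to 0.0627 for Csprs and -0.17 to 0.13 for C130026I21Rik, paeoniflorin against LPS from -0.28 to 0.0276 for Ifi202b, and albiflorin minus paeoniflorin from -0.16 to 0.21 for Ifi202b. The cause was not tested. Calls over all probes for paeonol at 100 µg/ml against LPS alone were 28 in the fit reported, 94 with the replicate block, 154 with array weights, 62 with both blocks, 12 without the detection filter, 9 under median scaling or with the array set block and 0 with only the compared groups (1707 at an unadjusted p under 0.05). They were 8 and 5 without LPS replicate 2 or 3, and 5, 9 and 53 without paeonol 100 replicate 1, 2 or 3. The paeonol trend gave 4, with 26 under the replicate block, 27 with both blocks, 99 with array weights, 7 without the detection filter, 1 without paeonol 1 replicate 1, 1, 2 and 11 without paeonol 100 replicate 1, 2 or 3, and 0 under median scaling or with only the compared groups (1026 and 1663 unadjusted). The albiflorin and paeonol means gave 5, with 498 under the replicate block, 354 with array weights, 221 with both blocks, and 1 to 59 otherwise, the highest without paeonol 10 replicate 2. LPS against vehicle gave 2905, 1881 under median scaling and 1766 with only those groups. The replicate block changed no call of a member. Flag code 4 and the array sets were added after seeing the data. The headers gave no batch beyond the scan day, so that alternative was not run apart from the replicate block.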
